A study of Mus musculus with 12 samples.

Results

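The genes described here mark the enteric nervous system and the pacemaker cells of the gut wall. They were 36 genes listed by symbol, and the rows of the count table carrying those symbols were taken. The list was drawn up with earlier results of these data known, but no value entered the rule itself. The list held 24 genes of enteric neurons, 7 of enteric glia, 3 of interstitial cells of Cajal (ICC) and 2, Ncam1 and Ednrb, that more than 1 of these cell types uses. Of the 36 genes, 35 had a row among the 55376 genes of the table, and Erbb3os had none. A further 3 (Phox2a, Npy and Foxd3) were below the filter on low counts, which asked for a CPM (counts scaled to a library of fixed size) of 1 or more in 4 or more libraries, so that 32 members were among the 15952 genes tested. These were 22 neuronal genes, 5 glial genes, all 3 ICC genes and both shared genes.

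The enteric nervous system lies in ganglia between the muscle layers and beneath the mucosa, and it controls motility and secretion without input from the brain. Its excitatory motor neurons release acetylcholine and its inhibitory motor neurons release nitric oxide and vasoactive intestinal peptide, while glia surround both. ICC sit between the nerve endings and the smooth muscle, generate the slow electrical waves of the gut and depend on signalling through the receptor KIT. All of these cells lie outside the epithelium, though Chat and Kit are also expressed by some epithelial cells, as described below.

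Total RNA was sequenced from the proximal colon of 12 mice aged 12 weeks, with 1 library from each of 6 EPR fl/fl and 6 EPR cKO animals. EPR is a long non-coding RNA of epithelial cells. Both groups carry loxP sites around the promoter and exon 1 of EPR, and EPR cKO mice carry in addition a CDX2P-NLS Cre transgene, whose human CDX2 promoter acts in the intestinal epithelium. EPR fl/fl animals without Cre were the controls, so the presence of Cre and the loss of EPR cannot be told apart. The question put to the listed genes was whether cells outside the targeted epithelium differ in RNA level between the groups, and whether any difference is separate from that of the muscle wall. Whole frozen tissue of the proximal colon was used, muscle included, so that fewer cells of a type and less RNA per cell cannot be told apart.

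The libraries held between 13093904 and 33211041 counts. The targeted gene, listed as Smim31, had 297 to 1474 counts in the EPR fl/fl libraries and 0 to 10 in the EPR cKO libraries, which matches the labels. The library EPR cKO 1 stood apart from the other 5 of its group. For 32 of the 35 members with a row it had the highest value of all 12 libraries, the exceptions being Npy, Kit and Ano1. Its CPM was 1.35-fold (Entpd2) to 8.98-fold (Gal) the mean of the other 5 EPR cKO libraries, with a median of 5.16-fold. It was also the highest library for the smooth muscle myosin Myh11 (3202 CPM, against 397 to 845 in the other 5) and for the enteric actin Actg2 (1052 CPM, against 96.7 to 300.2). Fold changes of the members were therefore computed with and without EPR cKO 1. That choice was made on these same values. Lower fold changes and more calls without this library were thus largely fixed in advance, and they describe its weight only.

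Over all 12 libraries the members lay lower in EPR cKO more often than higher, but a single one passed the test. With edgeR's quasi-likelihood test and Benjamini-Hochberg adjustment over all tested genes, Kit fell and none rose at an adjusted p under 0.05, against a background of 1.57% of tested genes called lower and 0.884% called higher. DESeq2 and limma-voom also called Kit alone. The log2 fold change was negative for 29 members and positive for Vip, Entpd2 and Chat (Vip and Chat were negative by limma-voom), and its median was -0.37, against 0.02 over all tested genes. By limma-voom the median of the members was -0.79. When EPR cKO 1 was left out, a choice made after these values were seen, 23 of the 32 members fell and none rose. The median was then -1.08, but 14.4% of all tested genes were called lower and 7.44% higher. Members whose EPR cKO libraries all lay below every EPR fl/fl library numbered 1 with all libraries (Kit, background 1.47%) and 11 without EPR cKO 1 (background 7.22%).

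The heatmap of single libraries shows the same by gene. The column of EPR cKO 1 is above the EPR fl/fl mean for nearly every member, and those of EPR cKO 4, 5 and 6 are below it.

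**Figure D1:**
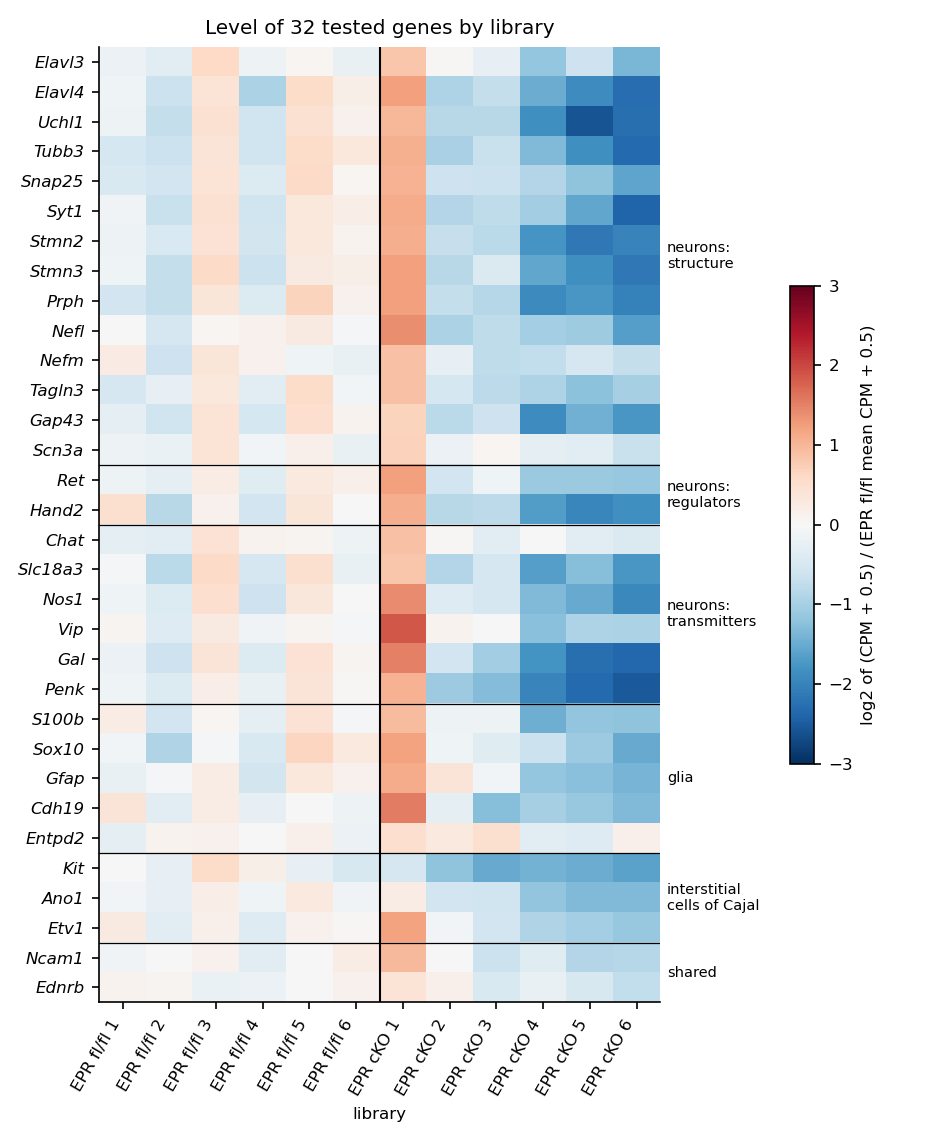
Rows are the 32 tested members by class and columns are the 12 libraries, with colour giving the log2 ratio of CPM to the EPR fl/fl mean (0.5 added to both). EPR cKO 1 is the highest library for all tested members other than Kit and Ano1, and Kit is below the EPR fl/fl mean in each EPR cKO library.

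The 14 neuronal genes of cytoskeleton, membrane and RNA binding had a median log2 fold change of -0.51 over all libraries, all 14 were negative, and none passed the test, with the smallest adjusted p at 0.397. At an unadjusted p under 0.05 there were 0 by edgeR or DESeq2 and 6, all lower, by limma-voom, which called 0 after adjustment, as did DESeq2, and had a median of -1.004. Over all 15952 tested genes, limma-voom had 1810 lower and 1759 higher at that unadjusted p, edgeR 1136 and 1777, and DESeq2 1252 and 1790. Elavl4, which encodes the neuronal RNA-binding protein HuD, ranged from 2.37 to 7.67 CPM in EPR fl/fl (median 5.21) and from 0.639 to 12.6 CPM in EPR cKO (median 1.95). The second highest EPR cKO library was at 2.91 CPM, within the EPR fl/fl range, so the groups overlapped even without EPR cKO 1. Its log2 fold change was -0.54 (adjusted p = 0.655, SE 0.62) with all libraries and -1.60 (adjusted p = 0.0157, SE 0.40) without EPR cKO 1.

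Tubb3, the neuronal beta-tubulin, ranged from 5.07 to 12.1 CPM in EPR fl/fl (median 7.86) and from 1.22 to 17.7 CPM in EPR cKO (median 3.43). Apart from EPR cKO 1 no EPR cKO library was above 4.91 CPM, so those 5 lay below all 6 controls. The log2 fold change was -0.59 (adjusted p = 0.581, SE 0.55) and, without that library, -1.47 (adjusted p = 0.0139, SE 0.36). Uchl1, the ubiquitin hydrolase known as PGP9.5, behaved alike, with 8.19 to 19.3 CPM in EPR fl/fl against 1.87 to 7.59 CPM in EPR cKO 2 to 6 and 28.2 CPM in EPR cKO 1. About 20.7% of its exon bases overlap Uchl1os on the opposite strand. Gap43, a growth-associated protein of axons, had the most negative fold change of the neuronal genes over all libraries, at -0.82 (adjusted p = 0.397, SE 0.50), and -1.51 (adjusted p = 0.0126, SE 0.36) without EPR cKO 1. Its CPM was 2.24 to 5.38 in EPR fl/fl and 0.626 to 2.20 in the other 5 EPR cKO libraries.

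Tagln3, a calponin-family protein of neurons, had a log2 fold change of -0.56 (adjusted p = 0.556, SE 0.49), and -1.33 (adjusted p = 0.0112, SE 0.31) without EPR cKO 1. Snap25 and Syt1 of the vesicle release machinery, the microtubule regulator Stmn2 and the light neurofilament Nefl also had all 5 remaining EPR cKO libraries below all 6 controls, which the other regulator Stmn3, peripherin (Prph) and the medium neurofilament Nefm did not. All of these fell without EPR cKO 1, by 0.85 (Nefm) to 1.52 (Stmn3) on the log2 scale, and with all libraries lay between -0.59 (Stmn2) and -0.28 (Nefl). Nefl and Nefm are neighbours on opposite strands, and 32.8% of the exon bases of Nefl and 19.2% of those of Nefm overlap each other, so their counts may share reads. Elavl3 (HuC), the tested member lowest per length in EPR fl/fl at 0.176 RPKM (CPM per kilobase of exon), and the sodium channel Scn3a did not pass the test without EPR cKO 1 (log2 fold change -0.90, adjusted p = 0.145, and -0.30, adjusted p = 0.202).

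Of the 3 regulators of the lineage, Ret and Hand2 were tested. Ret, the receptor for glial cell line-derived neurotrophic factor that enteric progenitors require, ranged from 9.78 to 15.6 CPM in EPR fl/fl (median 12.8) and from 5.48 to 11.6 CPM in the other 5 EPR cKO libraries, with 30.4 CPM in EPR cKO 1. Hand2, a transcription factor of enteric neurons, ranged from 5.07 to 13.3 CPM (median 9.72) and from 2.06 to 5.26 CPM, with 20.3 CPM in EPR cKO 1. In both genes 4 of those 5 libraries were below every control. Their log2 fold changes were -0.19 (Ret, adjusted p = 0.817) and -0.58 (Hand2, adjusted p = 0.57) with all libraries and -0.81 (adjusted p = 0.0196) and -1.46 (adjusted p = 0.00951) without EPR cKO 1. The exons of Hand2 overlap Hand2os1 on the opposite strand over 19.6% of their bases. Phox2a, a homeobox factor of autonomic neurons, had 4 to 25 counts a library and was not tested, with 0.325 to 0.805 CPM in EPR fl/fl against 0.187 to 0.451 CPM in the other 5 EPR cKO libraries.

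The 6 tested genes of transmitters and peptides ranged from a log2 fold change of -0.79 (Penk) to 0.26 (Vip), and none passed the test by edgeR, DESeq2 or limma-voom. At an unadjusted p under 0.05 there were 0 by edgeR or DESeq2 and 3, all lower, by limma-voom. Over all 15952 tested genes limma-voom had 1810 lower at that unadjusted p. The median was -0.31, and -0.99 by limma-voom. Nos1, the neuronal nitric oxide synthase of inhibitory motor neurons, ranged from 13.6 to 30.3 CPM in EPR fl/fl (median 20.3) and from 5.22 to 58.0 CPM in EPR cKO (median 11.5). The 5 libraries other than EPR cKO 1 reached 16.1 CPM and overlapped the controls. Its log2 fold change was -0.22 (adjusted p = 0.828, SE 0.51), and -1.06 (adjusted p = 0.0243, SE 0.30) without EPR cKO 1.

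Vip, which encodes vasoactive intestinal peptide and is used by the same class of inhibitory neurons, was 12.6 to 19.9 CPM in EPR fl/fl (median 16.8). In EPR cKO it was 61.6 CPM in EPR cKO 1 and 6.66 to 17.8 CPM in the other 5, which overlapped the controls. The log2 fold change was 0.26 (adjusted p = 0.776, SE 0.47) with all libraries and -0.54 (adjusted p = 0.127, SE 0.24) without EPR cKO 1, so that its direction turned without that library. By limma-voom it was negative with all libraries, at -0.25.

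Cholinergic neurons were read from Chat and Slc18a3. Chat, the enzyme that makes acetylcholine and the tested member with the lowest CPM, was 0.845 to 1.78 CPM in EPR fl/fl (median 1.16) and 0.745 to 2.59 CPM in EPR cKO (median 1.03), with a log2 fold change of 0.04 (adjusted p = 0.955, SE 0.32) and, without EPR cKO 1, of -0.31 (adjusted p = 0.375, SE 0.24). Chat is also made by tuft cells of the epithelium. Slc18a3, the transporter that loads acetylcholine into vesicles, was 0.877 to 3.07 CPM in EPR fl/fl (median 1.70) and 0.213 to 3.80 CPM in EPR cKO (median 0.652). Its log2 fold change was -0.77 (adjusted p = 0.514, SE 0.61), and -1.67 (adjusted p = 0.0207, SE 0.45) without EPR cKO 1. Whether the fold changes of Chat and Slc18a3 differ was not tested.

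Of the peptides, Penk (proenkephalin) was 12.0 to 21.3 CPM in EPR fl/fl (median 15.7), 2.40 to 7.29 CPM in EPR cKO 2 to 6 and 34.0 CPM in EPR cKO 1. The libraries EPR cKO 2 to 6 were below all controls. The log2 fold change of -0.79 (adjusted p = 0.472, SE 0.56) became -1.86 (adjusted p = 0.00151, SE 0.28) without EPR cKO 1, the most negative of all 32 members. Gal (galanin) was lower by 0.39 on the log2 scale with all libraries (adjusted p = 0.758) and fell by 1.62 without EPR cKO 1 (adjusted p = 0.0122). Npy, a peptide of submucosal and sympathetic neurons, had 0 to 4 counts in any library. It was at 0 in EPR fl/fl 2, 4, 5 and 6 and in EPR cKO 4, which allows at most 0.0992 to 0.229 CPM (3 counts of the total, counting error only), so its level was not measurable at this depth.

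The 5 tested glial genes overlapped between the groups, and none passed the test by edgeR, DESeq2 or limma-voom (0 at an unadjusted p under 0.05 by each). Their median log2 fold change was -0.14, and -0.52 by limma-voom. S100b, a calcium-binding protein of glia, was 1.17 to 2.87 CPM in EPR fl/fl (median 1.99) and 0.402 to 4.35 CPM in EPR cKO (median 1.17). Its log2 fold change was -0.35 (adjusted p = 0.722, SE 0.50), and -0.98 (adjusted p = 0.0906, SE 0.39) without EPR cKO 1. Sox10, the transcription factor that maintains glia and their progenitors, was 0.747 to 3.15 CPM in EPR fl/fl (median 1.73) and 0.319 to 4.84 CPM in EPR cKO (median 1.14), with a log2 fold change of -0.17 (adjusted p = 0.883, SE 0.55) and, without EPR cKO 1, of -0.90 (adjusted p = 0.138, SE 0.42). In both genes EPR cKO 4, 5 and 6 were the lowest libraries of their group, and EPR cKO 2 and 3 lay within the EPR fl/fl range.

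Cdh19, a cadherin of neural crest-derived glia, was the single glial member to fall without EPR cKO 1 (log2 fold change -1.11, SE 0.25, adjusted p = 0.00995, against -0.14, adjusted p = 0.897, with all libraries). Gfap, the glial filament protein, was 2.503 to 5.02 CPM in EPR fl/fl against 1.17 to 5.30 CPM in the other 5 EPR cKO libraries, with log2 fold changes of -0.10 (adjusted p = 0.922) and -0.61 (adjusted p = 0.261). Entpd2, an enzyme that breaks down extracellular ATP, was 12.6 to 17.1 CPM in EPR fl/fl (median 15.96) and 11.6 to 21.9 CPM in EPR cKO (median 18.0). It was the glial member with the least excess in EPR cKO 1 and its fold changes were 0.17 (adjusted p = 0.613, SE 0.17) and 0.07 (adjusted p = 0.805, SE 0.16). Foxd3, a factor of neural crest progenitors, had 2 to 31 counts and was not tested.

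Kit was the tested member with the highest level per length in EPR fl/fl, at 20.4 ± 5.43 RPKM (SD, n = 6), where the median of the tested members was 1.98. It lies at chr5:75574916-75656722 on the plus strand of GRCm38. Its CPM was 108, 90.9, 156, 121, 90.7 and 76.9 in EPR fl/fl 1 to 6 and 75.8, 45.9, 37.4, 39.7, 38.2 and 34.7 in EPR cKO 1 to 6. The highest EPR cKO library, EPR cKO 1, was just below the lowest control, and EPR cKO 2, the next highest, was at 45.9 CPM. The means were 107 ± 28.5 and 45.3 ± 15.4 CPM (SD, n = 6 each). The log2 fold change was -1.247 (adjusted p = 0.0074, SE 0.21), and -1.47 (adjusted p = 0.000163, SE 0.16) without EPR cKO 1.

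Ano1, the calcium-activated chloride channel through which ICC carry pacemaker current, lies at chr7:144588549-144738592 on the minus strand. Its CPM was 59.5, 53.6, 72.2, 57.8, 77.9 and 58.4 in EPR fl/fl 1 to 6 and 74.0, 42.6, 41.8, 27.6, 24.8 and 25.0 in EPR cKO 1 to 6. EPR cKO 1 was within the controls and the other 5 were below all of them. The log2 fold change was -0.69 (adjusted p = 0.167, SE 0.25), and -0.98 (adjusted p = 0.00285, SE 0.17) without EPR cKO 1. Etv1, a transcription factor of ICC that acts with KIT, was 9.23 to 14.9 CPM in EPR fl/fl (median 13.1) and 5.27 to 11.6 CPM in the other 5 EPR cKO libraries, which overlapped, with 29.2 CPM in EPR cKO 1. It had a log2 fold change of -0.16 (adjusted p = 0.84, SE 0.38), and -0.74 (adjusted p = 0.0245, SE 0.21) without EPR cKO 1. Where EPR cKO 1 had 3.94-fold the Etv1 of the other 5, it had 2.29-fold their Ano1 and 1.93-fold their Kit, and whether these ratios differ was not tested.

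**Figure D2:**
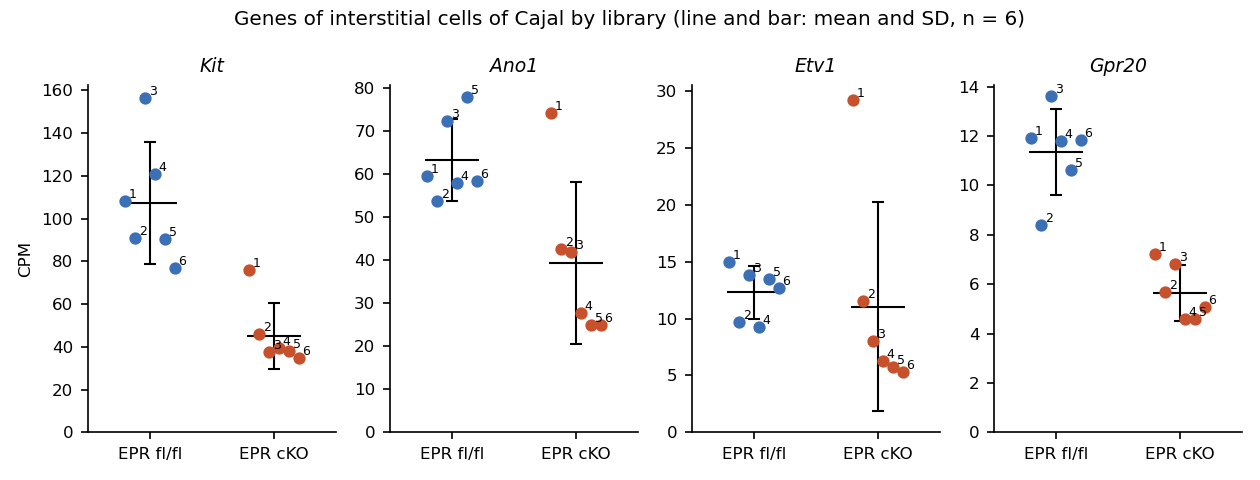
Points are CPM of Kit, Ano1, Etv1 and Gpr20 in single libraries, numbered by replicate, with lines and bars for mean and SD (n = 6 per group). The groups do not overlap for Kit and Gpr20, EPR cKO 1 lies among the controls for Ano1 and it lies above every control for Etv1.

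KIT is also carried by mast cells and by some secretory cells of the colonic crypt, so markers of both were read beside it. All 9 mast cell markers were below the filter, and their summed level was 1.11 to 3.66 CPM in EPR fl/fl against 2.05 to 6.39 CPM in EPR cKO. Of 12 goblet cell markers, a list chosen after the data were seen, 7 fell at an adjusted p under 0.05 (10 without EPR cKO 1) and all 12 were negative. The share of all tested genes called lower was 1.57% (14.4% without EPR cKO 1). Their summed level was 13791 to 28768 CPM in EPR fl/fl against 6329 to 8814 CPM in EPR cKO, with EPR cKO 1 at 8794. Goblet cell markers and Kit were thus both lower in EPR cKO. The authors had already reported several of these markers as reduced, and their part in the level of Kit was not tested.

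The promoters of 24 of the 36 members are in the RefSeq table of the GRCm38.p6 build. Those of Kit and Ano1 are shown because these 2 genes had the smallest p-values of the members, and that of Vip because its direction differed from theirs. Each runs from 250 bases before to 30 bases after a RefSeq start site, for Kit the first of 2 listed, with E-boxes (CANNTG), the CRE half-site TGACG and the TATA motif TATAAA in capitals where they were found on either strand.
Kit (chr5:75574737-75575016, plus strand): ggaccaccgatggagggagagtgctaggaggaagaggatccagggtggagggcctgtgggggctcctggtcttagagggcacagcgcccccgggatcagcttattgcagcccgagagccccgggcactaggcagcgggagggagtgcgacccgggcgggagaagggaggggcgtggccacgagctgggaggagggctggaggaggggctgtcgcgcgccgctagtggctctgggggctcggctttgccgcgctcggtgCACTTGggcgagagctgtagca
Ano1 (chr7:144738544-144738823, minus strand): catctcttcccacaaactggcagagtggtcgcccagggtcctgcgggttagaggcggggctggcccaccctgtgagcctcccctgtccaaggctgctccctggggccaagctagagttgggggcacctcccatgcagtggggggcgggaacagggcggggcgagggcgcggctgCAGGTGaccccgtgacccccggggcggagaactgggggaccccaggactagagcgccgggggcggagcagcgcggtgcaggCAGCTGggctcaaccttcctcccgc
Vip (chr10:5638968-5639247, plus strand): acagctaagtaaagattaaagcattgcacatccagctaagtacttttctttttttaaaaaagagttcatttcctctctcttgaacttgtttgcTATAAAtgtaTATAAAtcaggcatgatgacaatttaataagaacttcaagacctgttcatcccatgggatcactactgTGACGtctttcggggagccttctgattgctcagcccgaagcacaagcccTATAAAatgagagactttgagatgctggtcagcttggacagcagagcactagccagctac

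These windows differ in base composition, with 70.0% G and C in Kit, 71.8% in Ano1 and 40.4% in Vip. In full windows of 300 bases, which run to 50 bases after the start, an E-box was in 62.5% of the members with a window and 75.0% of all genes in that table. The CRE half-site was in 37.5% of those members and 23.0% of all genes, TATAAA in 16.7% and 15.7%, and the ETS core CCGGAA in 8.33% and 16.7%. A match describes the letters in the window and no binding site.

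Of the 2 shared genes, Ncam1 fell when EPR cKO 1 was left out and Ednrb did not pass the test. Ncam1, a neural adhesion molecule, had log2 fold changes of -0.14 (adjusted p = 0.814, SE 0.30) with all libraries and -0.55 (adjusted p = 0.037, SE 0.17) without EPR cKO 1, and was 10.5 to 15.4 CPM in EPR fl/fl against 6.92 to 13.1 CPM in the other 5 EPR cKO libraries. Ednrb, the endothelin receptor of enteric progenitors, had log2 fold changes of -0.18 (adjusted p = 0.616, SE 0.18) and -0.34 (adjusted p = 0.114, SE 0.15).

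The plot of fold changes sets both fits side by side. Leaving out EPR cKO 1, the highest EPR cKO library for each of these members, shifted each of them downward and shortened each error bar. The downward direction was largely fixed by that choice. The shift was smallest for Entpd2 (from 0.17 to 0.07 on the log2 scale), followed by Ednrb and Kit.

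**Figure D3:**
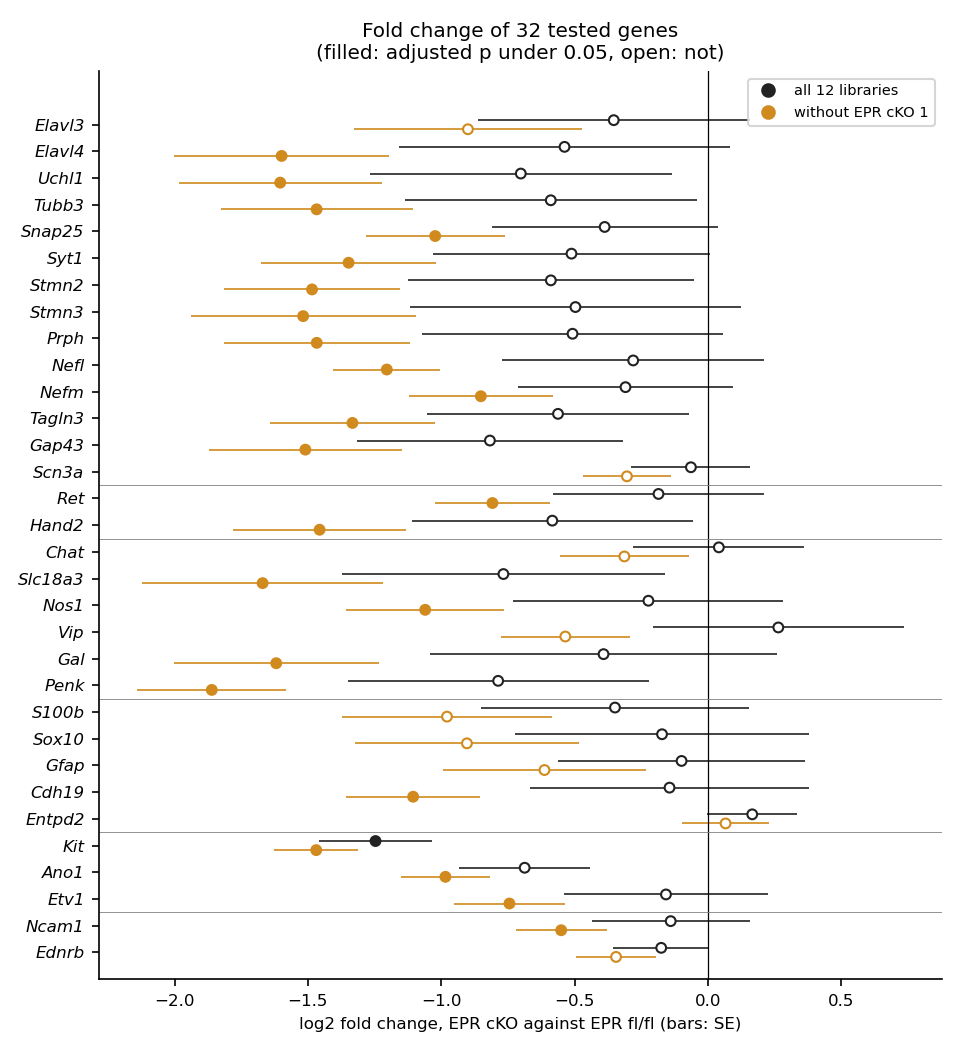
Points are log2 fold changes of EPR cKO against EPR fl/fl for the 32 tested members with SE bars, with all 12 libraries (black) and without EPR cKO 1 (orange), and filled points have an adjusted p under 0.05. Kit alone is filled with all libraries, and 23 members are filled without EPR cKO 1.

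A score for each class, the mean log2 CPM of its tested members, was compared with the same score over 16 smooth muscle genes. The neuronal score was 2.54 ± 0.41 for EPR fl/fl, 1.71 ± 1.14 for EPR cKO (SD, n = 6 each), a difference of -0.83. The glial score was 1.97 ± 0.30 and 1.53 ± 0.98, a difference of -0.44, and the ICC score was 5.43 ± 0.21 and 4.60 ± 0.64, a difference of -0.82. The smooth muscle score was 7.65 ± 0.27 and 6.81 ± 1.09, a difference of -0.84 (two-sided exact permutation test over 924 assignments, p = 0.0974). The muscle genes were listed with earlier results of these data known, so that p is descriptive only. Thus neuronal, ICC and muscle scores were lower by nearly the same amount, and the glial score by less. Without EPR cKO 1 the differences were -1.24 for neurons, -0.77 for glia, -1.06 for ICC and -1.24 for smooth muscle.

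**Figure D4:**
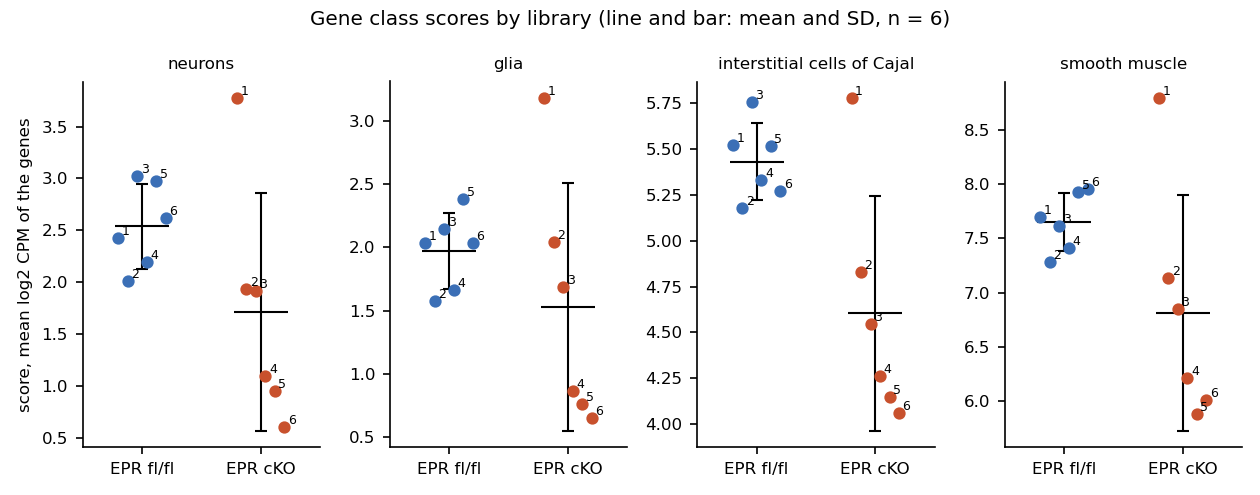
Points are class scores of single libraries, numbered by replicate, in log2 CPM, with lines and bars for mean and SD (n = 6 per group). EPR cKO 1 is the highest library in each panel, and EPR cKO 4, 5 and 6 are the lowest.

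Across the 12 libraries, for which the share of muscle wall was not recorded, most members followed the smooth muscle score closely. Pearson's r with that score was 0.40 (Entpd2) to 0.98 (Gal) over the 32 members, with a median of 0.93 and 23 genes over 0.9, and Spearman's rho was 0.24 to 0.97. By permutation (100000 resamples, adjusted over 32 genes) the adjusted p for r was 2.9e-05 at the lowest, where the raw p was the smallest these permutations can give, and 0.195 at the highest (Entpd2). The permutations treated all 12 libraries as exchangeable. Their p-values therefore also take in the difference between groups and the high values of EPR cKO 1, and say nothing of either group alone. Without EPR cKO 1 and EPR cKO 5, the libraries farthest from the median of the muscle score, r was -0.08 (Entpd2) to 0.98 (Penk), with a median of 0.90. Within EPR fl/fl the median r was 0.66, with Kit at -0.37 and Sox10 at 0.96, and within EPR cKO it was 0.95, with a range of 0.72 to 0.99. Over EPR cKO 2 to 6 alone (n = 5) the median was 0.85, with a range of 0.42 (Nefm) to 0.99 (Stmn2), so that EPR cKO 1 raised most of the values within its group.

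The r of Kit within EPR cKO was 0.94 with EPR cKO 1 and 0.68 without it. Over all libraries its r was 0.70 and its rho was 0.62 (adjusted p = 0.0125 and 0.0355), against 0.94 and 0.94 for Ano1 (adjusted p = 2.9e-05 and 0.000178). Whether the within-group values differ was not tested.

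**Figure D5:**
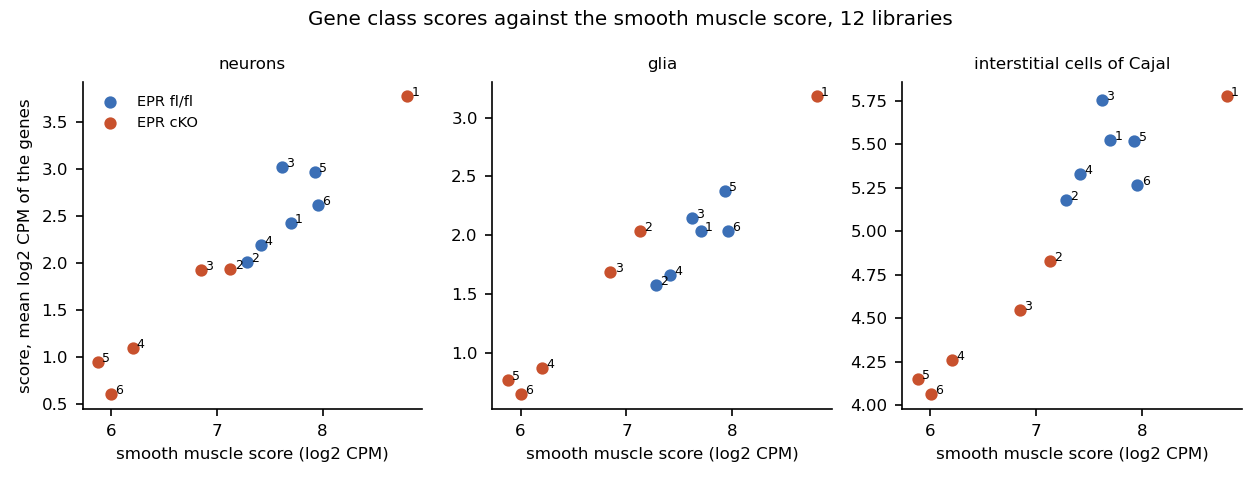
Points are the 12 libraries, numbered by replicate, with the smooth muscle score on the x axis and the class score on the y axis, both in mean log2 CPM. Neuronal scores of both groups lie along 1 line, glial scores of EPR cKO 2 to 6 lie above the line of the controls, and the ICC score of EPR cKO 1 is 5.78, against 5.75 in the highest control, while its muscle score is above that of every control.

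When the smooth muscle score was subtracted in each library, the neuronal score was -5.11 ± 0.28 in EPR fl/fl against -5.10 ± 0.18 in EPR cKO, a difference of 0.01. The ICC score relative to muscle was -2.22 ± 0.29 and -2.21 ± 0.46, also a difference of 0.01, with EPR cKO 1 the lowest library at -3.02. That value is a mean of unlike differences relative to muscle, -0.42 for Kit, 0.05 for Ano1 and 0.41 for Etv1. The glial score relative to muscle was -5.68 ± 0.16 and -5.28 ± 0.20, a difference of 0.40. The 5 libraries EPR cKO 2 to 6 were at -5.36 to -5.09, above the EPR fl/fl range of -5.92 to -5.47, and EPR cKO 1 was at -5.61. This separation rested on Entpd2. When that gene, chosen after its values were seen, was left out, the difference was 0.25 and EPR cKO 2 to 6, at -6.22 to -5.64, overlapped the EPR fl/fl range of -6.35 to -5.95.

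With the smooth muscle score as a covariate in the edgeR fit, the members were spread over both directions, with 15 negative and 17 positive and a median of 0.07. Kit fell with a log2 fold change of -1.04 (adjusted p = 0.01, SE 0.19) and Vip rose with one of 0.66 (adjusted p = 0.0273, SE 0.14), where 1.74% of all tested genes were called lower and 0.564% higher. Ano1 was at -0.34 (adjusted p = 0.106, SE 0.10) and Penk at -0.40 (adjusted p = 0.111, SE 0.12). All 5 glial members were positive, from 0.18 (S100b) to 0.42 (Sox10), and none passed the test.

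Neither call was made when EPR cKO 1 was left out of that fit. In that alternative, chosen after seeing the data, no member passed, with Kit at -1.41 (adjusted p = 0.0897, SE 0.31) and Vip at 0.51 (adjusted p = 0.542, SE 0.25), and 0.234% of tested genes were called lower and 0.0379% higher. There the smooth muscle score was 7.28 to 7.96 in EPR fl/fl and 5.88 to 7.13 in EPR cKO, with no overlap. Group and score can hardly be told apart there, so lost calls and changes of sign say little of a single gene. When libraries were scaled so that the smooth muscle genes were level, all genes shifted by a median of 1.09 on the log2 scale and 62.7% were called higher, so that a call in this scaling says little of a single gene. Kit was at -0.37 (adjusted p = 0.396, SE 0.39), a difference from that median of -1.46, and 31 of the 32 members were below the median. The log2 CPM of Kit less the muscle score was -1.69 to -0.33 in EPR fl/fl and -2.55 to -0.62 in EPR cKO, which overlapped.

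Other genes of the same cell types were read from longer lists. Of 40 further neuronal genes 33 were tested, 28 were negative and none passed the test by edgeR, DESeq2 or limma-voom (1 at an unadjusted p under 0.05 by edgeR), with a median of -0.34. Without EPR cKO 1, 21 of 32 fell (background 14.4% of tested genes), among them Slc5a7, the choline transporter of cholinergic terminals, at -1.66 (adjusted p = 0.00689).

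Of 18 further glial genes 12 were tested, and Gfra3 and L1cam rose. Gfra3, a co-receptor of RET for artemin, was 1.20 ± 0.219 CPM in EPR fl/fl against 2.21 ± 0.506 CPM in EPR cKO (SD, n = 6 each), with a log2 fold change of 0.87 (adjusted p = 0.0397, SE 0.20), and 0.96 (adjusted p = 0.0036) without EPR cKO 1. L1cam, a neural adhesion molecule, was 113 ± 9.13 and 144 ± 10.1 CPM, and its log2 fold change was 0.35 (adjusted p = 0.021, SE 0.07), and 0.36 (adjusted p = 0.00495) without EPR cKO 1. The groups were separate for L1cam and overlapped for Gfra3, through EPR cKO 1 alone. EPR cKO 1 was the lowest EPR cKO library for both genes (L1cam 131 CPM, Gfra3 1.32 CPM), whereas it was the highest for all tested glial members. Which cells of the tissue carry Gfra3 and L1cam was not tested. Neither passed the test with the smooth muscle covariate (adjusted p = 0.132 and 0.0611).

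Of 8 further ICC genes, all tested, Gpr20 fell. Gpr20, an orphan receptor of ICC, was 8.42 to 13.6 CPM in EPR fl/fl (median 11.8) and 4.58 to 7.21 CPM in EPR cKO (median 5.37), with no overlap. Its log2 fold change was -1.01 (adjusted p = 0.00343, SE 0.15), -1.11 (adjusted p = 0.000704) without EPR cKO 1 and -0.83 (adjusted p = 0.00717) with the smooth muscle covariate. It did not pass with the covariate and without EPR cKO 1 (-0.67, adjusted p = 0.369), a fit in which group and muscle score can hardly be told apart. The T-type calcium channel Cacna1h was at -0.74 (adjusted p = 0.2), and Kitl, the ligand of KIT, at 0.09 (adjusted p = 0.678, SE 0.11), with 123 and 131 CPM in the groups.

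Another 6 genes encode ligands of enteric cells or their processing (Gdnf, Nrtn, Edn3, Ece1, Nrg1 and Kitl, the last also in the ICC list). None passed the test by edgeR, DESeq2 or limma-voom (0 at an unadjusted p under 0.05 by edgeR). Without EPR cKO 1 (background 14.4% of tested genes lower) Gdnf and Nrtn, both ligands of the RET pathway, fell, at -0.90 (adjusted p = 0.0128) and -1.02 (adjusted p = 0.0265). Of 14 tested genes that receive enteric transmitters in muscle and epithelium, Vipr2 fell and none rose. Vipr2, a receptor for the product of Vip, was 6.24 to 10.3 CPM in EPR fl/fl (median 8.22) and 2.12 to 4.73 CPM in EPR cKO (median 2.64), with no overlap. Its log2 fold change was -1.54 (adjusted p = 0.00168, SE 0.21), -1.74 (adjusted p = 8.01e-05) without EPR cKO 1 and -1.35 (adjusted p = 0.00239) with the smooth muscle covariate. Vipr1, the other receptor, was at 0.12 (adjusted p = 0.547, SE 0.10).

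Markers of muscle, fat and endothelium moved with the members, and epithelial markers went the other way. All 16 smooth muscle genes were negative with none past the test (smallest adjusted p 0.47), and all 16 fell without EPR cKO 1 (background 14.4% of tested genes). Their summed level was 4214 to 7139 CPM in EPR fl/fl, 1519 to 3719 CPM in EPR cKO 2 to 6 and 12440 CPM in EPR cKO 1. Over 6 adipocyte markers it was 421 to 1372, 53.9 to 323 and 947 CPM, and over 8 endothelial markers 66.6 to 79.2, 32.4 to 74.6 and 111 CPM. Over 12 epithelial markers it was 9826 to 14464 CPM in EPR fl/fl, 14264 to 17963 CPM in EPR cKO 2 to 6 and 11910 CPM in EPR cKO 1, and the epithelial score was higher in EPR cKO by 0.29 (two-sided exact permutation test over 924 assignments, p = 0.026). This list too was chosen with earlier results of these data known, so the p is descriptive only. How much muscle wall each piece of colon held was not recorded in the labels, and its part in the members' levels was not tested apart from the fits with the smooth muscle score.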

How the data were processed

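Total RNA of whole proximal colon was sequenced in 12 libraries, 6 EPR fl/fl and 6 EPR cKO, as stranded libraries depleted of ribosomal RNA. The authors trimmed reads with Trimmomatic, aligned them to mm10 with STAR 2.5.3a and counted them per gene of an Ensembl GRCm38 annotation with featureCounts (STAR version from the submitters' processing notes). The values the authors deposited are raw counts per gene, neither normalized nor filtered, for 55376 genes, 36694 of them with a count. A strand setting for counting and the handling of multi-mapping reads are not given in the sources used here.

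Group membership came from the sample labels, and each count column was matched to its sample by name. Genes with at least 1 CPM in at least 4 libraries were kept (15952), scaled by TMM and tested with edgeR 4.0.16 in R 4.3.3 (glmQLFit and glmQLFTest, 2 groups, no covariate, Benjamini-Hochberg over all tested genes). Standard errors (SE) are the absolute log2 fold change over the square root of F. CPM values are TMM-scaled, and RPKM divides them by the summed exon length in kilobases. Scores are means of log2 CPM with a prior count of 2. Single scores were compared by exact permutation, and correlations were tested by 100000 permutations, with scipy 1.17.1. DESeq2 1.42.0 and limma-voom (limma 3.58.1) were alternatives, with other scalings and filters, a replicate block, a smooth muscle covariate and leaving out each library. The edgeR fit of the 2 groups was checked on simulated counts. Members and lists were chosen with earlier results of these data known. Named in full were Kit, Ano1 and the 6 members with the next smallest p-values (Gap43, Penk, Slc18a3, Uchl1, Tagln3 and Hand2), along with Chat, Nos1, Vip, Elavl4, Tubb3, Sox10 and S100b. From other lists, genes with an adjusted p under 0.05 or up to 4 with the smallest p were eligible, and the remaining genes were named after their values were seen. Total counts of 13093904 to 33211041 and a biological coefficient of variation of 26.1% set the precision. With 1 library per animal, the p-values measure the spread between animals.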

Additional observations from a re-analysis of the deposited data

Results flagged for a closer look

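EPR cKO 1 was farther from the nearest library of its group than Dixon's 95% limit for 6 samples allows in 30 of the 31 cases found among 90 sets of 6 libraries. Chance flags about 1 set in 20, or 4.5 of 90, but genes of 1 library are not independent sets. It was the highest EPR cKO library in each of the 30. In CPM, its values for neuronal structure were Elavl4 12.6, Uchl1 28.2, Tubb3 17.7, Snap25 22.4, Syt1 19.98, Stmn2 22.2, Stmn3 9.74, Prph 24.6, Nefl 17.3, Nefm 3.08, Tagln3 3.3 and Gap43 6.06. For regulators and transmitters they were Ret 30.4, Phox2a 1.38, Hand2 20.3, Chat 2.59, Slc18a3 3.8, Nos1 58, Vip 61.6, Gal 23 and Penk 34. For glia they were S100b 4.35, Sox10 4.84 and Cdh19 13.9, for ICC Kit 75.8, Ano1 74 and Etv1 29.2, for Ncam1 26.3, and for smooth muscle Myh11 3202 and Actg2 1052. Its total of 19645585 counts was within the range of the other libraries. The 31st case was Elavl3 in EPR fl/fl 3, at 2.09 CPM against 0.877 to 1.29 CPM in the other controls.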

How the results depend on the processing

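Kit fell in 20 of 22 alternatives, with log2 fold changes of -1.47 to -1.04 and an adjusted p of 1.39e-06 to 0.0242. The exceptions are scaling to the smooth muscle genes and the smooth muscle covariate without EPR cKO replicate 1, where 0 members were called lower. In the latter fit the muscle scores of the groups did not overlap, so a lost call says little of a single member. The count of lower members was 1 to 23 when single libraries were left out, with 23 without EPR cKO replicate 1 and 1 in the other 11 fits. Scaling to smooth muscle moved all genes by a median of 1.09 and called 62.7% of them higher. Entpd2 alone among the members was called higher there (1.10, at that median), and 31 of the 32 were below it, Kit with a difference of -1.46. A lost call or a change of sign in this scaling therefore says little of a single member. The SE of Kit was also larger there than in the main fit, and why its call was lost was not tested. With the covariate 1 member was higher (Vip). With the replicate block, members lower were 1 and higher 0, and 178 genes were lower and 67 higher, against 251 and 141. The labels state no pairing of animals. Correlations of same-numbered libraries were -0.24 to 0.34, which cannot exclude a pairing by number. Class scores before subtraction kept their direction in all settings run. When single libraries were left out the differences were -1.24 to -0.61 for neurons, -0.77 to -0.27 for glia and -1.06 to -0.72 for ICC, and relative to muscle they were -0.04 to 0.11, 0.35 to 0.46 and -0.08 to 0.18.

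Members with no call changed sign in several settings, and the cause was not tested. With the covariate and without EPR cKO replicate 1, group and muscle score can hardly be told apart, so signs there say little. Scaled to smooth muscle the log2 fold changes that turned were Elavl3 0.14, Snap25 0.19, Nefl 0.11, Nefm 0.32, Scn3a 0.79, Ret 0.37, Nos1 0.14, S100b 0.10, Sox10 0.29, Gfap 0.38, Cdh19 0.18, Ano1 0.093, Etv1 0.41, Ncam1 0.57 and Ednrb 0.72. With the covariate they were Elavl3 0.091, Snap25 0.072, Nefl 0.094, Nefm 0.070, Scn3a 0.21, Ret 0.25, Nos1 0.22, S100b 0.18, Sox10 0.42, Gfap 0.40, Cdh19 0.22, Etv1 0.27, Ncam1 0.22 and Ednrb 0.065. The smooth muscle gene Myh11, no member and part of the covariate, was at 0.0036. With the covariate and without EPR cKO replicate 1 they were Elavl3 0.35, Elavl4 0.21, Uchl1 0.24, Tubb3 0.10, Stmn2 0.060, Stmn3 0.33, Prph 0.068, Scn3a 0.091, Ret 0.14, Hand2 0.070, Nos1 0.26, Gal 0.17, S100b 0.74, Sox10 1.04, Gfap 1.00, Etv1 0.21, Ncam1 0.066 and Ednrb 0.13. Chat and Vip turned to -0.080 and -0.25 by limma-voom and to -0.038 and -0.21 with the replicate block, and Chat to -0.015 on total counts. When single libraries were left out in turn, the members that turned in any fit were Scn3a (-0.30 to 0.041), Chat (-0.31 to 0.20), Vip (-0.54 to 0.44), Sox10 (-0.90 to 0.029), Gfap (-0.61 to 0.078) and Cdh19 (-1.11 to 0.015). Depth limited Npy, Phox2a and Foxd3, which were not tested.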

Other observations

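Interstitial cells that carry PDGFRA, which lie beside ICC and relay inhibitory signals from nerves to muscle, were read from 5 genes. None of the 5 passed the test with all libraries by edgeR (0 at an unadjusted p under 0.05), DESeq2 or limma-voom, and 4 of 5 were negative, with a median of -0.20. Without EPR cKO 1, 3 of 5 fell (background 14.4% of tested genes), namely Kcnn3, Gja1 and Cd34. Their summed level was 171 to 202 CPM in EPR fl/fl, 120 to 193 CPM in EPR cKO 2 to 6 and 287 CPM in EPR cKO 1.

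Enteroendocrine cells, which share secretory genes with neurons, did not follow the members. Of 11 genes 8 were positive, and Cck, which encodes cholecystokinin, rose, with a log2 fold change of 1.35 (adjusted p = 0.0152, SE 0.26; 1.43 and adjusted p = 0.00311 without EPR cKO 1) and means of 1.52 and 3.84 CPM. The granins Chga and Chgb, shared by both cell types, were at -0.18 (adjusted p = 0.728, SE 0.26) and -0.11 (adjusted p = 0.811, SE 0.22). The summed level of the 11 genes was 302 to 656 CPM in EPR fl/fl against 315 to 627 CPM in EPR cKO, with EPR cKO 1 the lowest of its group.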
